A study of Mus musculus with 4 samples.

Results

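The genes described here are mouse solute carriers, membrane proteins that move ions, sugars, amino acids and organic ions across membranes. They were taken by name, as every gene of 14 families in which the carriers of the kidney tubule are found (Slc4, Slc5, Slc6, Slc9, Slc12, Slc13, Slc16, Slc17, Slc22, Slc23, Slc26, Slc34, Slc36 and Slc43). The rule used gene names and no measured value, and it found 117 of the 17391 genes in the count table. Of these, 114 are carriers and 3 carry a carrier's name without being one: Slc9a3r1 and Slc9a3r2 are scaffold proteins that bind carriers, and Slc4a1ap is an adaptor protein.

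The study measured single-cell RNA by Drop-seq, in which each cell meets a barcoded bead in a droplet, in primary cultures of kidney cells that express Gli1, a marker of perivascular mesenchymal cells. The donors were male mice 12 weeks old. After 2 h without serum, TGF-β, which turns mesenchymal cells into myofibroblasts, was given at 1 ng/ml for 6, 12 or 24 h. Cells labelled 0 h were taken after the 2 h without serum and received no TGF-β. By their labels all 4 groups share the culture, the selection of Gli1+ cells and the serum-free step, and no group holds more than 1 library. The sources used here do not say how Gli1+ cells were selected or how many animals were pooled.

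In the tubule, filtered solutes are taken back by carriers that sit on the luminal side of an epithelial cell and are driven by the sodium gradient that the sodium pump maintains on the other side. The proximal tubule takes back phosphate, glucose, amino acids, bicarbonate, citrate, urate and vitamins and secretes organic anions and cations. The thick ascending limb and the distal convoluted tubule take back salt through chloride cotransporters of the Slc12 family. Most cells outside epithelia use other members of the same families for housekeeping work such as cell volume, intracellular pH, osmolyte uptake and lysosomal export.

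The libraries labelled 0, 6, 12 and 24 h held 192, 658, 1120 and 1328 barcodes with 106826, 778793, 5687966 and 6166324 counts, and no barcode sequence was shared between any pair of them. The 3 treated libraries were pooled by summing counts, which gave 12633083 counts. Levels are in CPM, a gene's counts scaled to the same total in every library, and 1 count was worth 0.0792 CPM in the pool and 9.36 CPM at 0 h. A count of 0 therefore allows up to 0.237 CPM in the pool and 28.1 CPM at 0 h, taking 3 counts as the limit. The library labelled 0 h stood apart from its label. Summed mesenchymal markers reached 8888 CPM in the treated pool (4902, 8689 and 9575 CPM at 6, 12 and 24 h), against 56.2 CPM at 0 h, where Col1a1, Col3a1, Sparc and Acta2 had no count. Summed proximal tubule markers were at 28.1 CPM in the treated pool and 12394 CPM at 0 h, and summed loop, distal and collecting duct markers at 2.06 and 1470 CPM. All 20 proximal markers and 16 of the 18 others were in the table, and none of these markers is a carrier of the rule. Of 13 mesenchymal markers, 11 were in the table, and Gli1 and Lum were not. Dcn, Thy1 and Tagln were the lowest of them in the pool, at 0.554, 3.25 and 6.97 CPM, and Thy1 was at 9.36 CPM (1 count) at 0 h. Endothelial markers were at 12.1 CPM in the pool and 309 CPM at 0 h, podocyte markers at 2.69 and 215 CPM, and macrophage markers at 3.72 and 103 CPM. Malat1, a nuclear RNA, took 32.2% of the counts at 0 h and 0.947, 1.13 and 1.24% at 6, 12 and 24 h. The difference in cell type, the difference in RNA quality and the treatment cannot be told apart in the comparison with 0 h. Whether the barcodes labelled 0 h came from the Gli1+ culture that the label describes cannot be settled from the counts, so it is called the library labelled 0 h throughout.

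The 114 carriers took 746 CPM of the treated pool and 18816 CPM of the library labelled 0 h. A gene was compared where it reached 50 CPM in either of them, and was called higher or lower past 2-fold. With 1 library a group there is no test, and the intervals given are exact 95% intervals that cover counting error only. Of 46 carriers that reached 50 CPM, 39 were lower in the treated pool, 1 was higher and 6 were neither, as was Slc4a1ap, the 1 other member compared. Over all 5134 genes compared, 31.3% were lower and 45.4% were higher. That split moved with the scaling, to 25.9% lower and 52.9% higher with TMM factors and to 39.5 and 32.5% with totals that leave out Malat1, mitochondrial and ribosomal protein genes. In deeper barcodes the rule gave 53.6% lower and 12% higher with at least 500 genes, where 55 of 61 members were lower. With at least 1000 counts it gave 56.9 and 10.8%, and 54 of 58 members were lower. These lower calls can include genes with no count at 0 h, which are set to 3 counts there. Only 13 barcodes with 15.4% of the counts at 0 h had 1000 or more, so 3 counts there stand far above 50 CPM. How many calls arose in this way was not counted, so these shares do not give a direction. With all barcodes, 3 counts at 0 h are 28.1 CPM, under the 50 CPM limit. The median log2 difference, computed on CPM plus 10, was -3.39 over the 47 members and 0.62 over all genes compared. In the remaining 70 members, both levels were under 50 CPM, and 4 of the 117 (Slc13a4, Slc13a5, Slc16a5 and Slc9a3) had no count in any library. At 20 CPM, 64 members were compared, of which 53 were lower and 3 higher, against 30.5 and 35.5% of all genes.

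**Figure D1:**
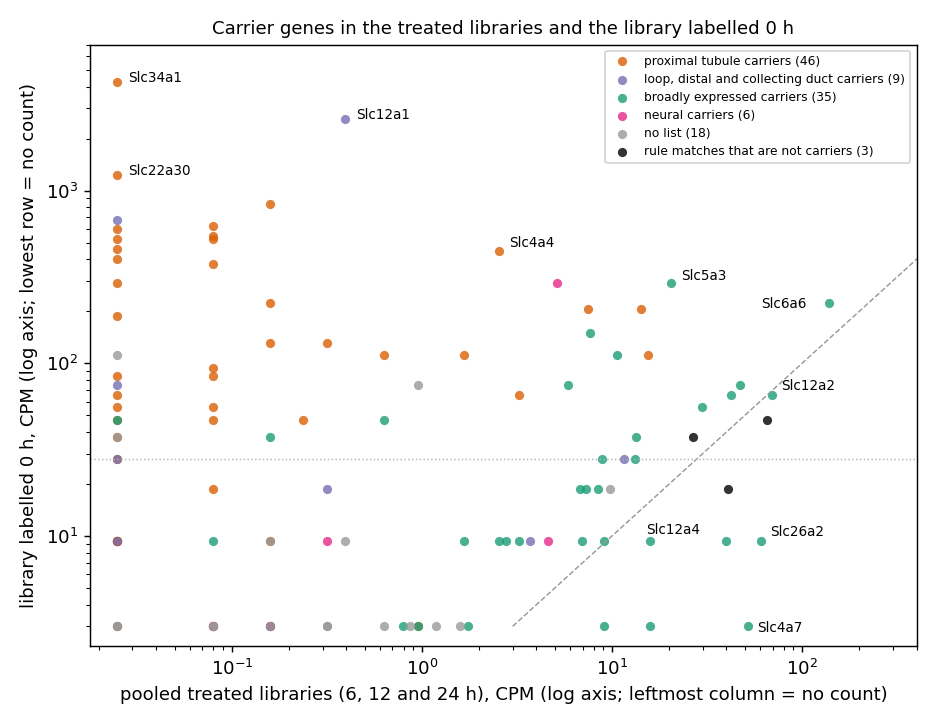
CPM of each of the 117 members in the treated libraries pooled (horizontal, log axis, genes without a count at the left edge) and in the library labelled 0 h (vertical, log axis, genes without a count at the bottom), coloured by list. The dashed line marks equal levels and the dotted line the 28.1 CPM of 3 counts at 0 h. Proximal tubule carriers fill the upper left, with Slc34a1 at 0 and 4250 CPM, and the carriers on the right, led by Slc6a6 at 139 CPM in the pool, come from the broadly expressed list.

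The carriers of the proximal tubule made up most of the difference. All 29 of 46 that reached 50 CPM were lower in the treated pool. The list summed to 48.4 CPM there, against 13330 CPM at 0 h, and its median log2 difference was -4.30. With that sum under 50 CPM, each of the 29 passed the limit through 0 h alone. The tally of lower calls is therefore not evidence apart from the levels themselves. Of the 46, 20 had no count among the 12633083 of the treated libraries and at least 1 at 0 h. The set holds carriers of phosphate, glucose, amino acids, bicarbonate, sulphate, urate and drugs, so the low level in the treated libraries was not limited to a single substrate. Genes on the opposite strand overlap several members, among them Slc34a1 (Pfn3), Slc5a2 (BC017158), Slc22a12 (Nrxn2), Slc23a1 (Paip2), Slc12a1 (Gm14002), Slc6a19 (Slc6a19os) and Slc13a3 (Gm14437). Since it is not known whether strand was read, counts cannot be told apart from theirs. Slc13a1 is overlapped by Gm20706 on its own strand.

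Slc34a1 encodes the sodium-phosphate cotransporter of the proximal brush border and was the most abundant member of the table (GENCODE, mm10, chr13:55398187-55415592, plus strand). It had 454, 0, 0 and 0 counts at 0, 6, 12 and 24 h. That put it at no count in the pool and 4250 CPM at 0 h, at least 17896-fold lower in treated cells. None of the 3106 treated barcodes held a count of it. At 0 h it was found in 141 of 192 barcodes (73.4%), and no barcode held more than 12 of its counts. Slc34a3, a second renal phosphate carrier, had 0 counts in the pool and 3 at 0 h.

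The glucose and monocarboxylate carriers of the Slc5 family divided by member. Slc5a2, the SGLT2 glucose carrier of the early proximal tubule, had 56, 0, 0 and 1 counts at 0, 6, 12 and 24 h, a level 6622-fold lower in the pool (1141 to 266186). Slc5a12, a lactate carrier of the same cells, had 58, 0, 0 and 1. Slc5a1, the SGLT1 glucose carrier of the late proximal tubule, had 2 counts in the pool and 1 at 0 h. Of the glucose carriers, the early proximal one was therefore well measured at 0 h and the late one was not detectable above a few counts.

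Amino acid carriers were present as a set at 0 h. Slc6a19, which takes up neutral amino acids, had no count in any treated library and 56 at 0 h, at least 2207-fold lower. Its neighbour Slc6a18, which takes up glycine and other neutral amino acids, had no count in any treated library and 64 at 0 h. Both lie within 500 kb of each other on chromosome 13. Slc6a20b, a proline carrier, had 2 counts in the pool and 14 at 0 h, and Slc6a13, a GABA carrier, had 0 and 9. Slc6a20a and Slc6a20b share 10 to 13.4% of their last 600 bases of transcript as identical 51-base stretches, so a few counts could have gone to either.

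Organic anion and cation carriers of the Slc22 family made up a large part of the proximal list. Slc22a30, an organic anion carrier known only from rodents, had no count in the treated libraries and 132 counts in 82 barcodes at 0 h, at least 5203-fold lower. Slc22a28, its relative in the same cluster, had no count in the treated libraries and 43 at 0 h, and 39.1% of its 3′ end is shared with Slc22a30. Slc22a12, the urate exchanger URAT1, had no count in the treated libraries and 31 at 0 h. Slc22a6, the organic anion carrier OAT1, had 2 counts in the pool and 24 at 0 h, whereas Slc22a8, OAT3, had 0 and 1. The organic cation carrier Slc22a2 had 0 and 20. On chromosome 19, 7 Slc22 genes from Slc22a19 to Slc22a6 lie between 7673061 and 8628299 (mm10). Together they held 2 counts in the treated pool, both of Slc22a6, and 209 at 0 h, where each of the 7 had at least 1.

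The Slc17, Slc13 and Slc23 carriers followed the same order of levels. Slc17a3, an organic anion and urate carrier, had 89, 0, 0 and 2 counts at 0, 6, 12 and 24 h. Slc17a1, a urate and phosphate carrier next to it, had no count in any treated library and 49 at 0 h. The 4 Slc17 genes on chromosome 13 between 23806993 and 23915009 held 3 counts in the pool and 142 at 0 h. Slc17a5, a lysosomal sialic acid exporter of the same family that lies elsewhere, on chromosome 9, was at 42.3 CPM in the pool and 65.5 CPM at 0 h, so the family did not move as a whole. Up to 14.9% of the 3′ end of Slc17a5 is shared with other genes. Slc13a1, a sulphate carrier, had 40, 0, 1 and 0 counts at 0, 6, 12 and 24 h, and Slc13a3, a dicarboxylate carrier, had 4 counts in the pool and 14 at 0 h. Slc23a1, a vitamin C carrier of epithelia, had 1 count in the pool and 67 at 0 h. Its relative Slc23a2, the vitamin C carrier of most other cells, was at 6.97 CPM (88 counts) in the pool and 9.36 CPM (1 count) at 0 h.

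Slc4a4, the basolateral sodium-bicarbonate cotransporter, had 48, 1, 4 and 27 counts at 0, 6, 12 and 24 h, or 449, 1.28, 0.703 and 4.38 CPM. It was 177-fold lower in the pool than at 0 h (111 to 287). Between treated libraries it was 6.23-fold higher at 24 h than at 12 h (2.17 to 24.5), at levels under the 50 CPM limit, and was picked out after its values were seen.

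Slc9a3, the sodium-proton exchanger NHE3 of the proximal brush border, had no count in any of the 4 libraries, although the proximal markers were abundant at 0 h. At this depth that allows up to 28.1 CPM at 0 h and 0.237 CPM in the pool. The scaffold protein Slc9a3r1, which binds that exchanger and Slc34a1, was at 26.8 CPM in the pool and 37.4 CPM (4 counts) at 0 h. Another exchanger, Slc9a8, was at 14.2 CPM in the pool and 206 CPM at 0 h, 14.5-fold lower (8.84 to 22.6).

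A few members of the proximal list kept a measurable level in treated cells. Slc9a8, Slc43a2 and Slc22a5 were the 3 of the 46 that reached 5 CPM in the pool. Slc43a2, a carrier of large neutral amino acids, was at 15.5 CPM in the pool and 112 CPM at 0 h, 7.24-fold lower (3.68 to 12.9). Slc22a5, the carnitine carrier OCTN2, was at 7.52 and 206 CPM, but 30.9% of its 3′ end is shared with its neighbour Slc22a21, which was at 5.86 and 74.9 CPM. These 3 are carriers that many cell types use as well as the tubule.

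**Figure D2:**
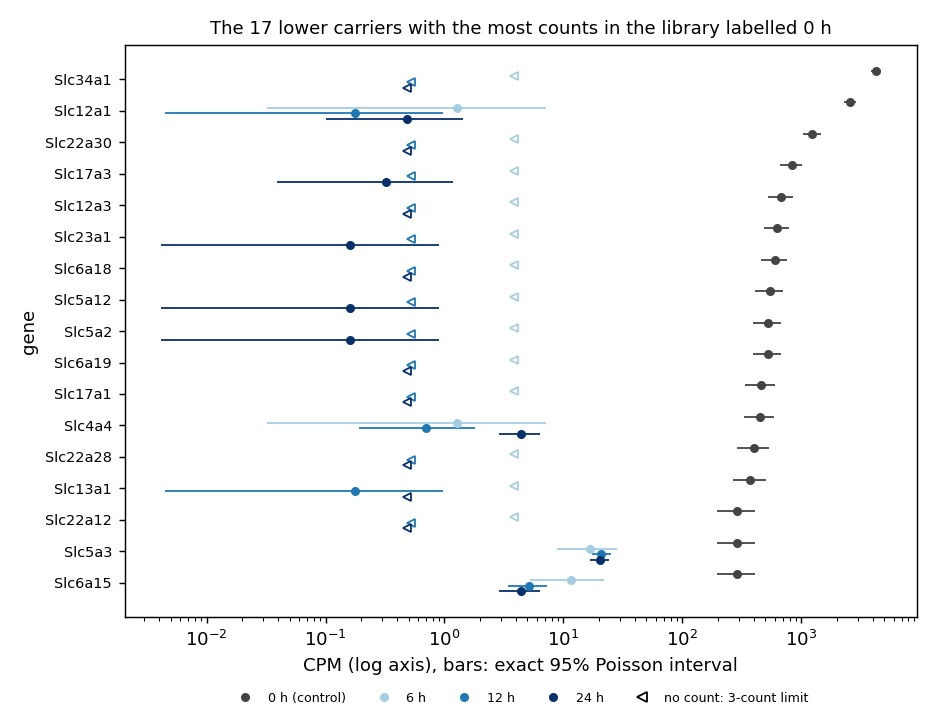
CPM (log axis) of the 17 lower carriers with the most counts at 0 h, in the libraries labelled 0, 6, 12 and 24 h, with exact 95% Poisson intervals. Open triangles mark the limit that 3 counts would give where no count was seen. Every gene sits between 290 and 4250 CPM at 0 h, and only Slc5a3, Slc6a15 and Slc4a4 have a level above 4 CPM in any treated library.

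The carriers of the loop of Henle, the distal tubule and the collecting duct were fewer. All 3 of 9 that reached 50 CPM were lower in the treated pool. The list summed to 16.1 CPM in the pool and 3426 CPM at 0 h, so these 3 also passed the limit through 0 h alone. Slc12a1, the NKCC2 cotransporter of the thick ascending limb and the target of loop diuretics, had 276, 1, 1 and 3 counts at 0, 6, 12 and 24 h. It was 6528-fold lower in the pool (2764 to 20264). A single barcode held 42 of its counts at 0 h, while 72 barcodes held at least 1. Slc12a3, the thiazide-sensitive NCC cotransporter of the distal convoluted tubule, had no count in treated libraries and 72 counts in 24 barcodes at 0 h, at least 2838-fold lower. Slc26a4, the pendrin chloride-bicarbonate exchanger of intercalated cells, had no count in treated libraries and 8 counts in 6 barcodes at 0 h. Slc4a1, the anion exchanger of the same segment, was not analysed here. Slc4a11 was the member of the list with the highest level in treated cells, at 11.6 CPM in the pool and 28.1 CPM (3 counts) at 0 h.

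Carriers of different segments shared barcodes of the library labelled 0 h at about the rate at which each was found over the whole library. Slc34a1, found in 73.4% of all barcodes, was in 57 of the 72 barcodes with Slc12a1 (79.2%) and in 17 of the 24 with Slc12a3 (70.8%), although tubule cells use these carriers in different segments. Slc12a1, found in 37.5% of all barcodes, was in 9 of the 24 with Slc12a3 (37.5%). Slc26a4, in 6 barcodes, shared none with Slc12a3, and 6 are too few to read an absence from. Scrublet, which looks for droplets with more than 1 cell, called 33 of the 192 barcodes, and the part of such droplets and of free RNA in these pairs was not tested.

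Barcodes were then sorted by marker genes that are not carriers. Taking the larger of the summed proximal and summed loop, distal and collecting duct markers, 177 barcodes were proximal, 7 were loop and 8 had a tie or no marker. The 7 loop barcodes held 4061 counts. In them Slc12a1 was at 14775 CPM, against 1973 CPM in the 177 proximal ones, and 6 of the 7 held it. Slc12a3 was at 2709 CPM, against 460 CPM, but 1 barcode of the 7 held all 11 of its counts. Slc34a1 was at 4374 CPM in the proximal barcodes and 2216 CPM (9 counts) in the loop ones, 1.97-fold higher (1.03 to 4.35). The summed proximal tubule carriers were 2.80-fold higher in the proximal barcodes (1.81 to 4.60). Because 7 barcodes are few, a second division was added after the data had been seen, in which each marker sum was first divided by its total over the library. It gave 66 loop-weighted and 124 proximal-weighted barcodes with medians of 522 and 472.5 counts. The 66 are not a pure class, since they held 401 proximal marker counts and 148 loop, distal and collecting duct ones.

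Across these weighted classes Slc12a1 and Slc12a3 separated and most proximal carriers, taken singly, did not. Slc12a3 was at 1425 CPM in the loop-weighted barcodes and 173 CPM in the proximal-weighted ones, 8.24-fold higher (4.29 to 17.4). Slc12a1 was at 4015 and 1526 CPM, 2.63-fold higher (2.04 to 3.41). In the other direction, Slc23a1 was at 834 CPM in the proximal-weighted barcodes and 309 CPM in the loop-weighted ones, 2.70-fold higher (1.45 to 5.40), and Slc17a3 at 1086 and 451 CPM, 2.41-fold higher (1.43 to 4.23). Slc34a1 was at 4579 CPM in the proximal-weighted and 3825 CPM in the loop-weighted barcodes, 1.20-fold higher with an interval from 0.984 to 1.46. It was seen in 73.4% of the proximal-weighted and 74.2% of the loop-weighted barcodes, so it did not tell these weighted classes apart. The summed proximal tubule carriers were 1.24-fold higher in the proximal-weighted barcodes (1.11 to 1.39).

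Slc5a3, the inositol carrier SMIT1 that cells of the hypertonic medulla use to take up an osmolyte, was the carrier from the broadly expressed list that followed Slc12a1 and Slc12a3. It was at 523 CPM in loop-weighted and 126 CPM in proximal-weighted barcodes, 4.15-fold higher (1.78 to 10.8). Of its 31 counts at 0 h, 1 barcode held 6. In the treated libraries it was at 16.7, 20.9 and 20.3 CPM at 6, 12 and 24 h, with 20.3 CPM in the pool against 290 CPM at 0 h. The gene lies inside Mrps6 on the same strand (mm10, chr16:92058322-92087473), so counts of the 2 genes can be confused.

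**Figure D3:**
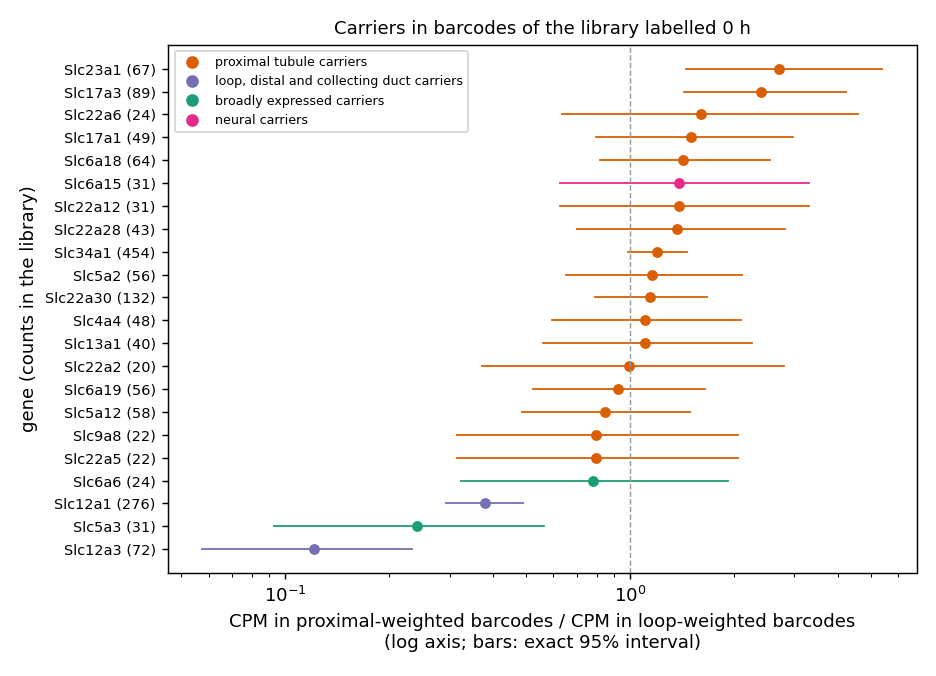
Ratio of CPM in proximal-weighted over loop-weighted barcodes of the library labelled 0 h (log axis) for carriers with at least 20 counts there, with exact 95% intervals and the dashed line at equal levels. Slc12a3, Slc5a3 and Slc12a1 lie to the left of the line, Slc23a1 and Slc17a3 to the right, and the other 17 intervals cross it.

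The broadly expressed list had a share of lower calls near that of all genes. Of 35 members, 11 reached 50 CPM, of which 4 were lower in the treated pool, 1 was higher and 6 were neither, against 31.3% lower and 45.4% higher over all genes compared, with a median log2 difference of -0.65 against 0.62 over all genes compared. The list summed to 654 CPM in the treated pool (476, 714 and 622 CPM at 6, 12 and 24 h) and 1488 CPM at 0 h. Of the 32 members of the whole rule that reached 5 CPM in the pool, 23 were in this list, 3 in the proximal list, 3 were the rule matches that are not carriers and 1 each came from the loop, neural and unlisted genes. Whether a low sum follows from fewer cells of a type or from less RNA per cell cannot be told apart in summed counts.

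Slc6a6, the taurine carrier, was the most abundant member in the treated libraries (mm10, chr6:91684053-91759066, plus strand). It was at 225, 93.7, 151 and 135 CPM at 0, 6, 12 and 24 h, from 24, 73, 857 and 830 counts. The pool was at 139 CPM and the library labelled 0 h at 225 CPM, 1.61-fold lower (1.03 to 2.41), which did not pass the 2-fold limit. It was seen in 31.0% of treated barcodes and 11.5% at 0 h, where barcodes are far shallower. The gene is overlapped by 4930517G19Rik and Gm44981 on the opposite strand and by Gm45828 on its own, so counts can be confused.

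Slc26a2, a sulphate carrier that connective tissue cells use to make sulphated proteoglycans, was the 1 member called higher. It was at 60.8 CPM in the pool (44.9, 64.9 and 59.0 CPM at 6, 12 and 24 h) and 9.36 CPM at 0 h, where it had 1 count. The ratio was 6.49 with a counting interval from 1.16 to 257, so its size is poorly fixed. In barcodes with at least 500 genes, or at least 1000 counts, that single count was gone and Slc26a2 was no longer called higher. Without a count at 0 h the rule can call a gene lower there, so these filters give no direction for Slc26a2. Slc4a7, a sodium-bicarbonate cotransporter of many cell types, was at 52.1 CPM in the pool with 658 counts and had no count at 0 h, at least 1.85-fold higher and so not called, though it was called with TMM scaling. Both were therefore well measured in treated cells and at the limit of detection at 0 h.

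Carriers that set cell volume and chloride came next. Slc12a2, the NKCC1 cotransporter found in most cells, was at 69.3 CPM in the pool (57.8, 80.2 and 60.8 CPM at 6, 12 and 24 h) and 65.5 CPM at 0 h, a ratio of 1.06 (0.511 to 2.64). Its tubular relatives Slc12a1 and Slc12a3 were at 0.396 and 0 CPM in the pool. Slc12a4, the potassium-chloride cotransporter KCC1, was at 39.6 CPM in the pool and 9.36 CPM (1 count) at 0 h, a ratio of 4.23 whose interval ran from 0.755 to 167. Within this family the cotransporters of tubule segments were therefore lower in the treated pool, while Slc12a2 did not pass the limit in either direction.

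The other abundant members of the treated libraries serve energy, pH and lysosomes. Slc6a8, the creatine carrier, was at 46.9 CPM in the pool and 74.9 CPM at 0 h, and Slc4a2, a chloride-bicarbonate exchanger, at 29.8 and 56.2 CPM, and neither passed the limit. The scaffold protein Slc9a3r2 was at 40.9 CPM in the pool and 18.7 CPM (2 counts) at 0 h, and Slc4a1ap at 65.1 and 46.8 CPM. The lactate carriers Slc16a1 and Slc16a3 were low in treated cells, at 3.25 and 0.158 CPM in the pool, with 1 and 0 counts at 0 h. Slc36a1, a lysosomal amino acid carrier, was at 7.68 and 150 CPM, 19.5-fold lower (10.7 to 33.3), although its list is broadly expressed. Of the 6 neural carriers in the table, only Slc6a15, a neutral amino acid carrier known from brain, reached 50 CPM, and it was at 5.15 CPM in the pool and 290 CPM at 0 h (28 of 192 barcodes).

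**Figure D4:**
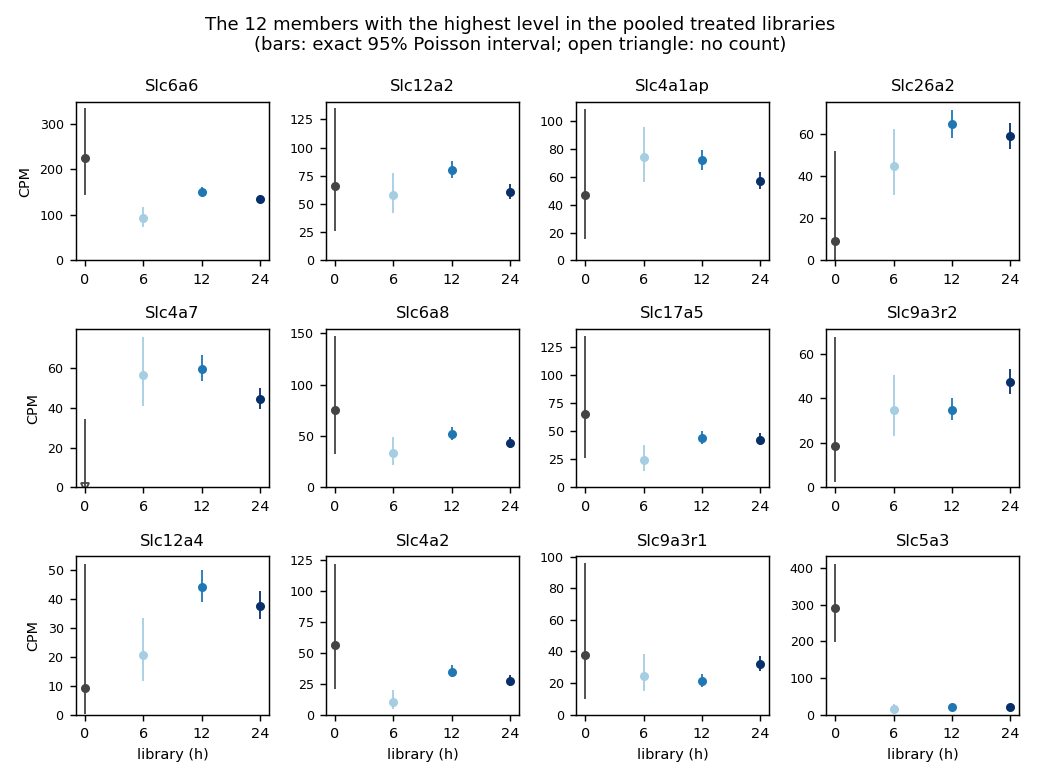
CPM of the 12 members with the highest level in the treated pool, in the libraries labelled 0, 6, 12 and 24 h, with exact 95% Poisson intervals (each panel has its own axis from 0, and an open triangle marks no count). Slc6a6, Slc6a8, Slc26a2, Slc12a2, Slc12a4 and Slc4a2 were among those lower at 6 h than at 12 h. The wide intervals at 0 h come from few counts, 24 for Slc6a6 and 1 for Slc26a2.

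Between treated libraries, which do not rest on the library labelled 0 h, no carrier passed 2-fold at 50 CPM. Of all genes, 7.39% were past the limit upwards and 4.3% downwards from 6 to 12 h, with 6 members compared. At 24 h against 12 h the shares were 1.3% higher and 1.35% lower, with 6 members compared, and at 24 h against 6 h 6.49% higher and 4.57% lower, with 5 members compared. With the limit at 20 CPM, 12 members were compared each time. For 12 h against 6 h, 2 of them (Slc12a4 and Slc4a2) were higher and 0 lower, against 9.89% higher and 4.61% lower of all genes. For 24 h against 12 h, 0 were called in either direction, against 1.2 and 1.57% of all genes, and for 24 h against 6 h, 1 (Slc4a2) was higher and 0 lower, against 8.25 and 5.46%. Slc6a6 came closest, 1.61-fold higher at 12 h than at 6 h (1.26 to 2.07). Below 50 CPM, among genes picked out after their values were seen, Slc4a2 reached 34.8 CPM at 12 h, against 10.3 CPM at 6 h, 3.39-fold higher (1.69 to 7.96). Slc12a4 reached 44.3 CPM at 12 h, against 20.5 CPM at 6 h, 2.16-fold higher (1.30 to 3.83), and Slc43a2 was at 18.5 and 2.57 CPM, 7.19-fold higher (1.94 to 60.1). The 6 h library differed from the other treated ones in make-up, since 80 of its 658 barcodes held 74.1% of its counts, and the part of this in the differences with 6 h was not tested. From 12 to 24 h the intervals of Slc9a3r1 (1.52-fold higher, 1.20 to 1.92) and of Slc9a5, a sodium-proton exchanger (2.01-fold lower, 1.36 to 3.01), did not include equal levels.

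Genes outside the rule that work with these carriers were compared in the same way, beside 31.3% lower and 45.4% higher over all genes compared. In other tubule carrier families all 8 genes at 50 CPM were lower in the treated pool. That list summed to 15.4 CPM in the pool, so these 8 passed the limit through 0 h alone. Among them, Slc7a13, an amino acid carrier, had 2 counts in the pool and 149 at 0 h. Slc47a1, a drug exporter, had 0 and 79. All 9 pump and channel genes that reached 50 CPM were lower, including Atp1b1, a sodium pump subunit, at 20.5 and 824 CPM. Of 8 carrier partner proteins compared, 6 were lower and 1 was higher. Pdzk1, a scaffold for brush border carriers, and Tmem27, collectrin, which Slc6a19 needs to reach the membrane, had 4 and 1 counts in the pool and 59 and 33 at 0 h. Bsg, basigin, which escorts the lactate carriers Slc16a1 and Slc16a3, was at 392 CPM in the pool and 37.4 CPM (4 counts) at 0 h, 10.5-fold higher (4.09 to 38.5). The escort was therefore abundant in treated cells while both lactate carriers were low.

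Genes of the WNK pathway, whose kinases regulate Slc12 cotransporters, were called in both directions. Of 7 compared, 3 were lower and 2 were higher, against 31.3 and 45.4% of all genes. Wnk1, the first kinase of the pathway, was at 233 CPM in the pool and 740 CPM at 0 h, 3.17-fold lower (2.51 to 3.97), and Wnk4, its tubular relative, at 1.27 and 150 CPM. Cab39, a scaffold of the downstream kinases, was 4.49-fold higher (1.24 to 37.1) from 2 counts at 0 h. All 8 tubule transcription factors at 50 CPM were lower. That list summed to 2.22 CPM in the pool, so these 8 passed the limit through 0 h alone. Among them, Maf had 143, 1, 6 and 5 counts at 0, 6, 12 and 24 h. Hnf4a, which maintains proximal identity, had 1 count in the treated libraries and 25 at 0 h.

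Promoter sequences, from 250 bases before to 50 after each RefSeq start site, were available for 86 of the 117 members, as 108 promoters. They were searched on both strands for the HNF1 palindrome (GTTAAT, any base, ATTAAC, with up to 2 of its 12 fixed letters different), because HNF1 factors act on tubule genes, for AAAGTCC, the core of HNF4 sites, for TATAAA, and for GGGCGG, the GC box of housekeeping promoters. The GC box can overlap itself and none of the searches used the counts. An HNF1-like match was found in 1.36% of all 32851 promoters and in 9 of 47 promoters of proximal tubule carriers (19.1%), 4 of 34 of the carriers called lower (11.8%), 0 of 29 of the broadly expressed carriers and 0 of 25 of the members at 5 CPM or more in the pool. At the share of all promoters, sets of 29 or 25 would mostly hold no match, so these absences say little. Of the 11 matches among members, 8 began between 100 and 30 bases before the start site. They include Slc17a6, a neural carrier, and Slc17a2 and Slc5a4b of the proximal list, all without a count at 0 h.

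The windows shown carry an HNF1-like match in capitals, with 24 or fewer bases on each side. They were chosen after the search, as the closest match, matches in carriers described above and matches in carriers with few counts, and they come from RefSeq on GRCm38.p6, read 5′ to 3′ on the gene's strand. Slc6a13 (chr6:121300641-121300701, plus) has 1 letter different and the others have 2. They are Slc17a1 (chr13:23870188-23870248, plus), Slc22a30 (chr19:8405129-8405189, minus), Slc22a22 (chr15:57265161-57265221, minus), Slc13a2 (chr11:78422251-78422311, minus) and Slc12a1 (chr2:125152366-125152426, plus).
Slc6a13: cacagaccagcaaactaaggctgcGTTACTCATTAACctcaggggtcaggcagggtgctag
Slc17a1: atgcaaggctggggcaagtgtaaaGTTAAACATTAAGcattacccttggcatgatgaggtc
Slc22a30: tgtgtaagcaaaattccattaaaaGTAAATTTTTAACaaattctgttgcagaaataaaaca
Slc22a22: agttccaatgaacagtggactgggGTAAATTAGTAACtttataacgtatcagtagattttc
Slc13a2: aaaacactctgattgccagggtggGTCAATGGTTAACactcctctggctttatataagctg
Slc12a1: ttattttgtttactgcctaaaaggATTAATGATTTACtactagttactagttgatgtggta
These 6 genes had 9, 49, 132, 5, 2 and 276 counts at 0 h in the order printed, so a match did not go with a high level in every case. The match of Slc12a1 began 210 bases before the start site, farther than that of the 5 proximal carriers.

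The promoter of Slc34a1, the most abundant tubular member, held no HNF1-like match within 2 letters. It is shown beside that of Slc12a4, a broadly expressed carrier, from 110 bases before to 25 after the start site. The capitals in Slc34a1 (chr13:55399538-55399672, plus) mark AAAGTCC, here on the other strand, and TATAAA, which began 16 bases after the annotated start. The capitals in Slc12a4 (chr8:105966091-105966225, minus) mark 5 matches to GGGCGG on either strand, of which the last pair overlap.
Slc34a1: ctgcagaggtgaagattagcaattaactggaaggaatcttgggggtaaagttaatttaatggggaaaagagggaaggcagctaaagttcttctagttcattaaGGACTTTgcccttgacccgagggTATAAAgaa
Slc12a4: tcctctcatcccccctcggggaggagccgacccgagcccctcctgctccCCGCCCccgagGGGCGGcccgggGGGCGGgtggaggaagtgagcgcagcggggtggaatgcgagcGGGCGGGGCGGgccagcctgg
AAAGTCC was found in 8.51% of proximal tubule carrier promoters and 4.21% of all promoters, TATAAA in 12.8 and 13.6%. GGGCGG was found in 27.7% of proximal tubule carrier promoters, 69.0% of broadly expressed carrier promoters and 35.7% of all. A match says only that these letters lie in the window, and binding was not measured.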

How the data were processed

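Drop-seq libraries of kidney Gli1+ cells, 1 per time, were deposited by the authors as 1 table of counts per gene and barcode. The submitters' processing notes name STAR 2.5.3a and mm10. The sources used here do not say how molecules were collapsed, which annotation was used, whether strand was read or how barcodes were kept. The deposited counts are whole numbers that were not divided by gene length, and Drop-seq reads 3′ ends, so a level is not compared between genes as molecules per cell. All 4 groups come from labels, every barcode column was used, and no barcode had under 200 genes.

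For each library the counts of all its barcodes were added up and expressed as CPM (Python 3.11.15, pandas 2.3.3). The treated libraries were pooled by summing. A count of 0 was set to 3 counts as a bound. Where those 3 counts stand above the level in the other library, the rule can call a gene lower against a count of 0. Ratios have exact conditional binomial intervals and CPM values exact Poisson intervals, both 95%. Counting intervals cover counting error only, and no p-value was computed because a group is 1 library. A pseudocount of 10 CPM was added before log2. Scaling by edgeR 4.0.16 TMM and DESeq2 1.42.0 size factors, other limits, barcode filters and doublet calls served as alternatives, and the call rule was tested on simulated data. Doublets were called per library with Scrublet in scanpy 1.11.5 at its default settings, which marked 33, 9, 18 and 14 barcodes at 0, 6, 12 and 24 h. They were kept in the values of the text. A first run with 20 components had marked 101, 17, 7 and 13 and was replaced after its calls were seen.

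The members and lists were chosen with earlier results of these data known. The genes named are those called lower with the 16 highest levels at 0 h (17 with a tie), those called higher, a set of best known carriers, and the genes said in the text to have been chosen after their values were seen. Other members named, the printed promoters, and Bsg and Wnk1 were also chosen after their values were seen. The remaining genes of other lists are among the 4 with the largest difference in their list. Shared 3′ sequence was counted as identical 51-base stretches in the last 600 bases of GENCODE transcripts. Some members of the families are counted in the totals but not reported by name here.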

Additional observations from a re-analysis of the deposited data

How the results depend on the processing

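No paired analysis was possible because each time has 1 library. The count of members called lower, 39 in the text, was 37 with TMM factors, 39 with DESeq2 size factors, 55 in barcodes with 500 or more genes, 54 in barcodes with 1000 or more counts and 97 with no floor. The 55, 54 and 97 can include members with no count at 0 h, since a 0 is set to 3 counts there. TMM factors moved the median log2 difference of all genes from 0.62 to 1.05, and the filters of 500 genes and 1000 counts moved it to -0.47 and -0.38. Totals without Malat1, mitochondrial and ribosomal protein genes moved it to -0.16, with 52 members lower. The count called higher, 1 in the text, was 2 with TMM factors, with a 1.5-fold limit or without the 24 h library (Slc26a2 and Slc4a7), 3 at 20 CPM or with no floor (Slc26a2, Slc12a4 and Slc9a3r2), and 0 at 100 CPM and with either barcode filter. Without the barcodes called by Scrublet with 20 components, an alternative added after seeing the data, 40 were lower and the 1 called higher was Slc4a1ap in place of Slc26a2. Slc26a4 then had no count left at 0 h, and its log2 difference was 0, against -3.09. From 6 to 12 h the count higher, 0 in the text, was 1 with totals without Malat1, mitochondrial and ribosomal protein genes (Slc12a4), 2 at 20 CPM (Slc12a4 and Slc4a2), 2 with a 1.5-fold limit (Slc6a6 and Slc6a8) and 8 with no floor, where 31 were lower. At 24 h against 12 h no floor gave 16 higher and 15 lower. At 24 h against 6 h it gave 8 higher and 37 lower, and 20 CPM gave 1 higher (Slc4a2). With no floor these counts include genes at or under 3 counts. A gene with no count in the library it is compared with is set to 3 counts there and can then be called lower. Against 0 h, 23 members had a count only in the pool. None of them was called higher in the setting of the text or with no floor, where their 0 is set to 3 counts. Slc4a7, which is among them, was called higher in the settings named above. The median of proximal carriers was -6.99 with a pseudocount of 1 CPM and -2.25 with 50 CPM, and that of loop, distal and collecting duct carriers -9.40 and -3.86. In the 0 h classes, asking for at least 2 marker counts of difference left 4 loop barcodes and a log2 ratio, proximal over loop class, of -3.14 for the loop list. The added division by each marker's own total gave 66 loop barcodes and log2 ratios of 0.31 for the proximal list and -1.58 for the loop list. The cause of these shifts was not tested. Among the other values, 445 moved by less than their counting error, 47 by more, and 1, Slc26a4 as given above, lost its direction. Leaving out the 6 h library or the 12 h library, or weighting the treated libraries equally, changed neither count of calls by over 1.5 times. The 106826 counts at 0 h set the precision, since 50 CPM is about 5 counts there.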
